A study of Mus musculus with 10 samples.

Results

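The 39 genes described here encode the enzymes that build fatty acids and glycerolipids, with 2 regulators of that programme, and their RNA was measured in mouse pancreatic islets after a western diet. They were taken by gene symbol from the deposited table, which lists 27665 genes, and all 39 were found and passed the filter on low counts that left 15104 genes for testing. The mice were C57BL/6J, a common inbred strain, with no engineered allele named in the labels. One group of 5 received a western diet for 4 weeks and the other group of 5 stayed on standard chow, and the age given for both is 8 to 10 weeks. Islets were isolated and processed at once, and each library came from 1 mouse. All 5 chow mice shared cage 3, 4 western diet mice shared cage 4 and the fifth western diet mouse came from cage 2, so that diet and cage cannot be told apart. The title of the series places this comparison at an early stage of beta cell compensation, the rise in insulin output that meets a higher demand.

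Fatty acid synthesis starts in the cytosol, where ATP citrate lyase (Acly) splits citrate to acetyl-CoA, acetyl-CoA carboxylase (Acaca, Acacb) makes malonyl-CoA and fatty acid synthase (Fasn) builds palmitate. Desaturases then add double bonds, and a cycle of condensing enzymes, reductases and dehydratases in the endoplasmic reticulum lengthens the chain. Acyl-CoA synthetases activate free fatty acids, which acyltransferases and lipin phosphatases place on glycerol to form phospholipids and triglycerides. The transcription factor SREBP-1, made from Srebf1, is known to drive much of this programme, and polyunsaturated fatty acids are known to lower its activity in liver. In the beta cell these lipids form the membranes of the endoplasmic reticulum, the Golgi and the insulin granules.

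On the western diet 5 of the 39 genes (12.8%) passed an adjusted p of 0.05 by edgeR, 2 higher and 3 lower. Over all genes tested the share was 10.8% (5.27% higher and 5.5% lower), so the number that changed among these genes was near the background. An unadjusted p under 0.05 was reached by 11 of the 39, where 26.9% of all genes tested reached it. Higher were Hsd17b12 and Hacd3, which act in the same elongation cycle. Lower were Srebf1 and the desaturase genes Scd2 and Fads2. The remaining 34 did not pass, and the enzymes that make palmitate, the acyl-CoA synthetases and the enzymes of glycerolipid assembly had no gene that passed. The median log2 fold change of the 39 was 0.02, with 21 above 0 and 18 below, against a median of 0.005 and 51% above 0 over all genes tested. Single values ran from -0.64 (Fads3) to 0.47 (Hsd17b12).

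**Figure D1:**
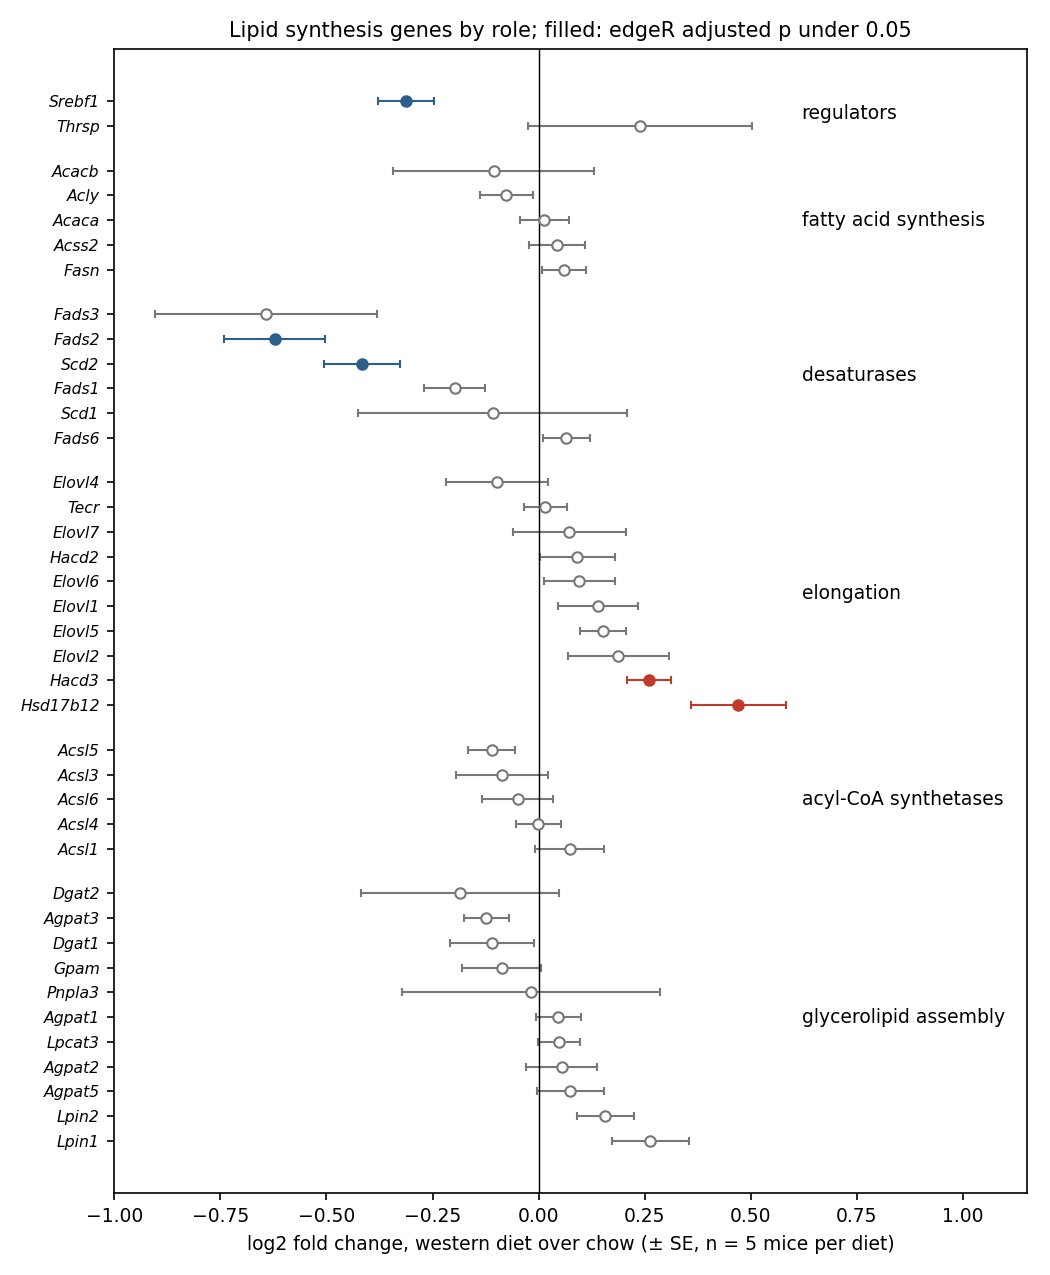
Log2 fold change of western diet over chow (x axis, log2 scale) for each of the 39 genes (y axis), grouped by role, with bars of ± 1 SE from edgeR over 5 mice per diet; filled points passed an adjusted p of 0.05. Of the 6 desaturase genes 5 lie left of 0, and 9 of 10 elongation genes lie right of it, while the genes of palmitate synthesis sit between -0.11 and 0.06.

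Promoter sequence was read for the genes that passed, because SREBP-1, NF-Y and Sp1 are known to act together at promoters of lipogenic genes. Each stretch runs from 250 bases before to 50 bases after an annotated RefSeq start on GRCm38.p6, 5′ to 3′ on the gene's strand, and capitals mark matches to the motifs searched on both strands. These motifs were the sterol regulatory element TCACNCCAC, the NF-Y box CCAAT, the E-box CACGTG and the Sp1 box GGGCGG. Of the 39 genes 33 had an entry, with 44 promoters in all. Scd1, Scd2, Fads1, Dgat1, Dgat2 and Agpat5 were not matched. Srebf1 has 3 annotated starts, and the one shown is the only start of these whose window held both NF-Y and Sp1 boxes; it lies at chr11:60210422-60210721 on the minus strand. The others lie at chr19:10101454-10101753 (Fads2), chr2:94157860-94158159 (Hsd17b12) and chr9:65021668-65021967 (Hacd3), all on the minus strand.
Srebf1: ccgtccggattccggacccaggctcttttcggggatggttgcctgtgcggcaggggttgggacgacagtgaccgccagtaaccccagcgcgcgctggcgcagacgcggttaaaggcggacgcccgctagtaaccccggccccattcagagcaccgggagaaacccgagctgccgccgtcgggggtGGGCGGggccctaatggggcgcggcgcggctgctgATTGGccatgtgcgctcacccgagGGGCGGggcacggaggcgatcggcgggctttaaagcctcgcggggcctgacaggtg
Fads2: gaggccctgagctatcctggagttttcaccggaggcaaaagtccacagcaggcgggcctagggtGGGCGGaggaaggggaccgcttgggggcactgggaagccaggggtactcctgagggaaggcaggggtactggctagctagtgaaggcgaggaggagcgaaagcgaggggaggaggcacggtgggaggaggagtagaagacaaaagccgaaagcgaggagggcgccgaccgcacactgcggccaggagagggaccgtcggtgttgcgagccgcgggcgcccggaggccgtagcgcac
Hsd17b12: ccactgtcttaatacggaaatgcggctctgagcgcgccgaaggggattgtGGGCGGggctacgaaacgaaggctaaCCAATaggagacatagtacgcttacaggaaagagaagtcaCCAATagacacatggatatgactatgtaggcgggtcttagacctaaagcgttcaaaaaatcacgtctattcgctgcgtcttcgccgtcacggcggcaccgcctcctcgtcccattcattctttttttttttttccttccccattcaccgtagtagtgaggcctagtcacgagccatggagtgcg
Hacd3: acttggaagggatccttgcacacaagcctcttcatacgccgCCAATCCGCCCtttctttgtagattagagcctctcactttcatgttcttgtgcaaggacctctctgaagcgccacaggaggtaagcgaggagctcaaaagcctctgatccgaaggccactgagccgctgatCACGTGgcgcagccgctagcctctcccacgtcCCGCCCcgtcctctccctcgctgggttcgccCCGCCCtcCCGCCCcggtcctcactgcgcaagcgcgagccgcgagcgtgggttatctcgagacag

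The Srebf1 window was picked for its boxes, with an NF-Y box at -30 counted from the start, and is left out of the counts of windows. The windows of Fads2, Hsd17b12 and Hacd3 each held at least 1 Sp1 box, and an NF-Y box was found at -174 and -134 in Hsd17b12 and at -209 in Hacd3. Hacd3 was the only one of the 4 genes shown with an E-box, at -78. Over the 33 matched genes 22 had an NF-Y box in at least 1 promoter and 24 an Sp1 box, where the shares of all 32851 promoters were 37.41% and 35.66%. The E-box was found in Elovl4, Elovl5, Hacd3 and Lpin2, and in 7.15% of all promoters. The sterol regulatory element was found in 1 of the 33 genes, Acsl1, and in 1.24% of all promoters. Only exact matches to TCACNCCAC inside the window were counted, so variant or more distant sites would be missed. A window without a match may therefore still hold such an element. Genes with several promoters have more chances of a match than a single promoter has, and a match is no measured binding.

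Srebf1 (ENSMUSG00000020538, chr11:60199089-60222581) gave 124, 135, 123 and 116 CPM (counts scaled to library size) in western diet mice 1, 2, 5 and 4 of cage 4 and 144 in the cage 2 mouse. Chow mice 1 to 5 gave 183, 161, 156, 152 and 146 CPM. The diets did not overlap, although the cage 2 mouse lay only just under the lowest chow mouse. The mean was 129 ± 10.98 CPM on the western diet against 160 ± 13.99 on chow (SD, n = 5 each), a log2 fold change of -0.31 ± 0.07 (SE; adjusted p by edgeR = 0.0063). The gene remained lower past the threshold in all 19 other fits, which changed the scaling, the filter, the test or the mice. The second regulator, Thrsp, encodes the small protein Spot 14 that promotes lipogenesis. It was low, at 26 to 47 reads per library. Its CPM were 1.32, 1.82, 2.85, 2.36 and 1.67 on the western diet (cage 2 mouse last) and 1.37, 1.45, 2.00, 2.44 and 1.23 on chow, with overlap of the diets and a log2 fold change of 0.24 ± 0.26 (edgeR adjusted p = 0.60).

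Desaturases held 2 of the 3 genes that were lower, and 5 of the 6 had a log2 fold change below 0. Fads2 (ENSMUSG00000024665, chr19:10064164-10101503) encodes the delta-6 desaturase, the first desaturation step towards long polyunsaturated fatty acids. Its CPM were 10.4, 9.498, 7.46 and 7.52 in cage 4 and 7.33 in the cage 2 mouse, and 14.8, 14.3, 11.8, 12.4 and 11.6 in chow mice 1 to 5. Every western diet mouse lay below every chow mouse. The ratio of western diet to chow was 0.65, a log2 fold change of -0.62 ± 0.12 (SE; adjusted p by edgeR = 0.0034), and it was past the threshold in all 19 other fits. Between 123 and 296 reads per library stand behind these values.

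Scd2 (ENSMUSG00000025203, chr19:44293676-44306864) is a stearoyl-CoA desaturase that makes monounsaturated fatty acids. Among the 6 desaturase genes of this set it was the most abundant, at a median of 29.0 FPKM over the 10 libraries. FPKM is a level per gene length and library size. The western diet mice gave 152, 164, 133 and 136 CPM in cage 4 and 134 in cage 2. Chow mice 1 to 5 gave 202, 206, 150, 187 and 213 CPM. Chow mouse 3 fell inside the western diet range, and the other 4 chow mice lay above it. The log2 fold change was -0.42 ± 0.09 (SE; adjusted p by edgeR = 0.012). The call was lost in 1 of 19 other fits, the one without both the cage 2 mouse and chow mouse 1 (-0.37, adjusted p = 0.061). Its neighbour Scd1, the main liver form, was low in the islets at a median of 0.872 FPKM. Scd1 gave 7.47, 3.58, 4.43 and 2.09 CPM in cage 4, 2.26 in cage 2, and 4.38, 4.74, 2.86, 4.05 and 5.25 on chow. A single western diet mouse thus had the highest Scd1 value and 2 others the lowest, and the coefficient of variation was 55.0% on the western diet. Scd1 (-0.11 ± 0.32, adjusted p = 0.87) did not pass. The Scd genes are close copies of each other, so how the counting divided their shared reads is uncertain.

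Fads1, Fads2 and Fads3 stand side by side on chromosome 19. Fads1, the delta-5 desaturase that acts after Fads2, gave 41.6, 38.9, 43.1 and 39.1 CPM in cage 4 and 34.2 in cage 2, against 42.6, 47.9, 39.5, 50.1 and 45.4 on chow. Chow mice 1 and 3 lay inside the western diet range, and the other 3 chow mice lay above it. The log2 fold change was -0.20 ± 0.07 and did not pass (edgeR adjusted p = 0.084); without chow mouse 3 it did (adjusted p = 0.044). Fads3, the third gene of the cluster, had 18 to 48 reads per library and a log2 fold change of -0.64 ± 0.26 (adjusted p = 0.12). Fads6 was at a median of 8.09 FPKM, above Fads2 at 7.27, and stood at 54.9 ± 2.48 CPM on the western diet and 52.4 ± 3.13 on chow (SD, n = 5 each; edgeR adjusted p = 0.47). Summed over the 6 genes, desaturase RNA ranged from 231 to 275 CPM on the western diet and from 260 to 329 CPM on chow, so that the sums overlapped.

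**Figure D2:**
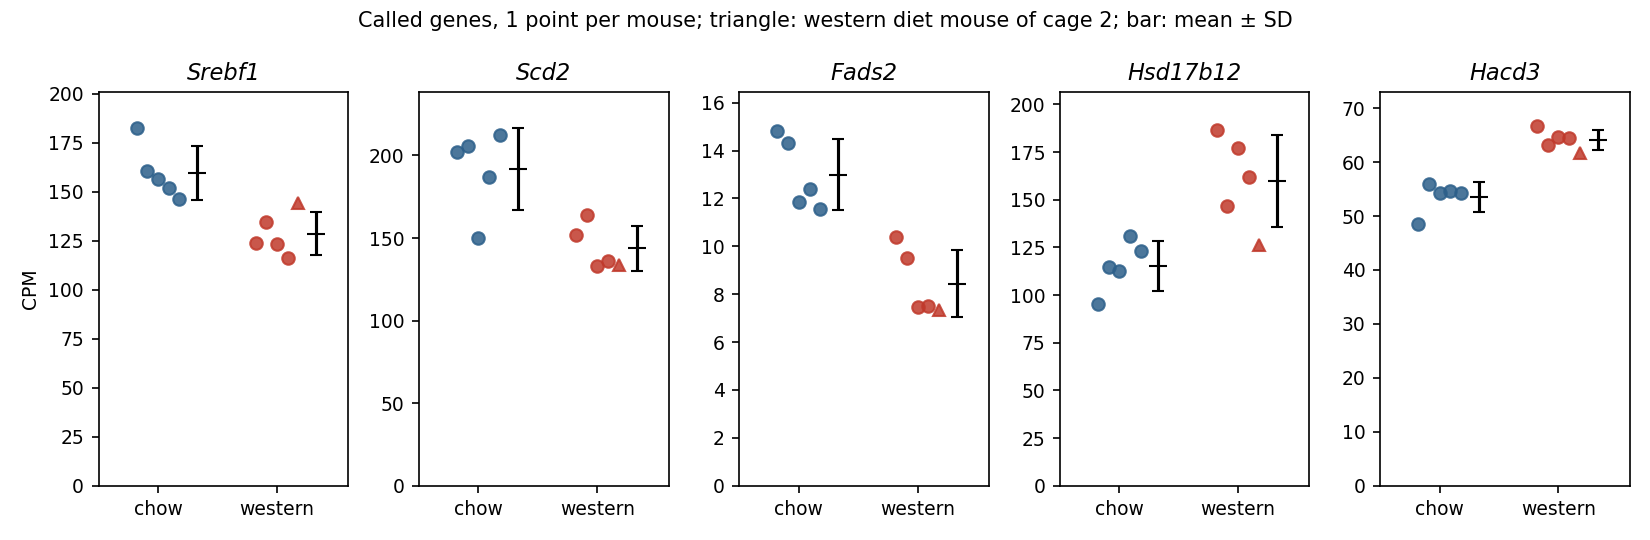
CPM (y axis, starting at 0) of the 5 genes that passed the threshold, 1 point per mouse, for chow and western diet (x axis); triangles mark the western diet mouse of cage 2 and bars the mean ± SD of 5 mice. Srebf1, Fads2 and Hacd3 show no overlap between diets, Scd2 has chow mouse 3 at 150 CPM among the western diet points, and for Hsd17b12 the cage 2 mouse at 126 CPM sits within the chow range.

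Elongation was the role with genes higher on the western diet. Each cycle needs a condensing enzyme (an Elovl), the ketoacyl reductase Hsd17b12, a dehydratase (a Hacd) and the enoyl reductase Tecr. Hsd17b12 (ENSMUSG00000027195, chr2:94032689-94157964) gave 187, 147, 177 and 162 CPM in cage 4 and 126 in cage 2, and 95.3, 115, 112, 131 and 123 in chow mice 1 to 5. The 4 cage 4 mice lay above all chow mice and the cage 2 mouse lay among them. The ratio was 1.39, a log2 fold change of 0.47 ± 0.11 (SE; adjusted p by edgeR = 0.024). This call was lost in 5 of 19 other fits. Those were the fits without mouse 5 of cage 4 (adjusted p = 0.058), without mouse 4 of cage 4 (0.063), without chow mouse 3 (0.059), with no filter on low counts (0.070) and with mouse number as a block (0.13). Its log2 fold change stayed between 0.40 and 0.55 in all of them, and without the cage 2 mouse it was 0.55 (adjusted p = 0.0022).

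Hacd3 (ENSMUSG00000033629, chr9:64986983-65021693) had the smallest spread of the 5 genes that passed. It gave 66.7, 63.2, 64.7 and 64.4 CPM in cage 4 and 61.6 in cage 2, and 48.6, 55.9, 54.2, 54.7 and 54.3 on chow. All western diet mice, the cage 2 mouse included, were higher than all chow mice. The log2 fold change was 0.26 ± 0.05 (SE; adjusted p by edgeR = 0.0043), and the gene passed in all 19 other fits. Its paralogue Hacd2 stood at 18.8 ± 1.98 CPM on the western diet and 17.7 ± 1.68 on chow (SD, n = 5 each; edgeR adjusted p = 0.55). Tecr, which closes the cycle, gave 110, 100, 103, 91.9 and 103 CPM on the western diet (cage 2 mouse last) and 97.9, 102, 102, 97.6 and 103 on chow. The chow values lay within the western diet range, and the log2 fold change was 0.02 ± 0.05 (adjusted p = 0.88).

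Among the 6 condensing enzymes none passed. Elovl5, which lengthens polyunsaturated chains and was the most abundant at a median of 37.4 FPKM, gave 134, 148, 149 and 135 CPM in cage 4 and 129 in cage 2, against 120, 128, 117, 127 and 134 on chow. The cage 4 mice lay just above the highest chow mouse, with the cage 2 mouse inside the chow range. Its log2 fold change was 0.15 ± 0.05 (edgeR adjusted p = 0.075), and 0.18 without the cage 2 mouse (adjusted p = 0.044). Elovl1, Elovl2, Elovl6 and Elovl7 had log2 fold changes of 0.14, 0.19, 0.10 and 0.07, and Elovl4 one of -0.10, all with overlapping diets. The median over the 10 elongation genes was 0.12, with 9 above 0. The summed level of the 10 genes ranged from 539 to 601 CPM on the western diet and from 458 to 523 on chow, which did not overlap. Most of the sum comes from Hsd17b12, Elovl5 and Tecr, of which only Hsd17b12 passed. How often sums over other sets of genes fail to overlap was not examined.

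None of the 5 genes that lead to palmitate passed, and their log2 fold changes ran from -0.11 to 0.06. Acly was by far the most abundant of the 39 genes, at a median of 277 FPKM, with Hsd17b12 next at 53.3 FPKM. Its CPM were 1312, 1473, 1434, 1348 and 1634 on the western diet (cage 2 mouse last) and 1505, 1714, 1478, 1440 and 1452 on chow. The diets overlapped, and the log2 fold change was -0.08 ± 0.06 (SE; adjusted p by edgeR = 0.46). Fasn gave 138 to 168 CPM on the western diet and 143 to 154 on chow, a log2 fold change of 0.06 ± 0.05 (adjusted p = 0.50). Acaca had a log2 fold change of 0.01 ± 0.06, and Acss2, which makes acetyl-CoA from acetate, one of 0.04 ± 0.07. Acacb, the isoform known for regulating fatty acid oxidation at mitochondria, had the lowest level of all at a median of 0.227 FPKM and 28 to 61 reads per library. Srebf1 was lower, and Acly, Acaca and Fasn, all known SREBP-1 targets, did not pass the test. Scd2 (-0.42) and Fads2 (-0.62) passed as lower, as did Insig1 (-0.32), an SREBP target outside this set. A difference between Srebf1 and any of these genes was not tested.

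**Figure D3:**
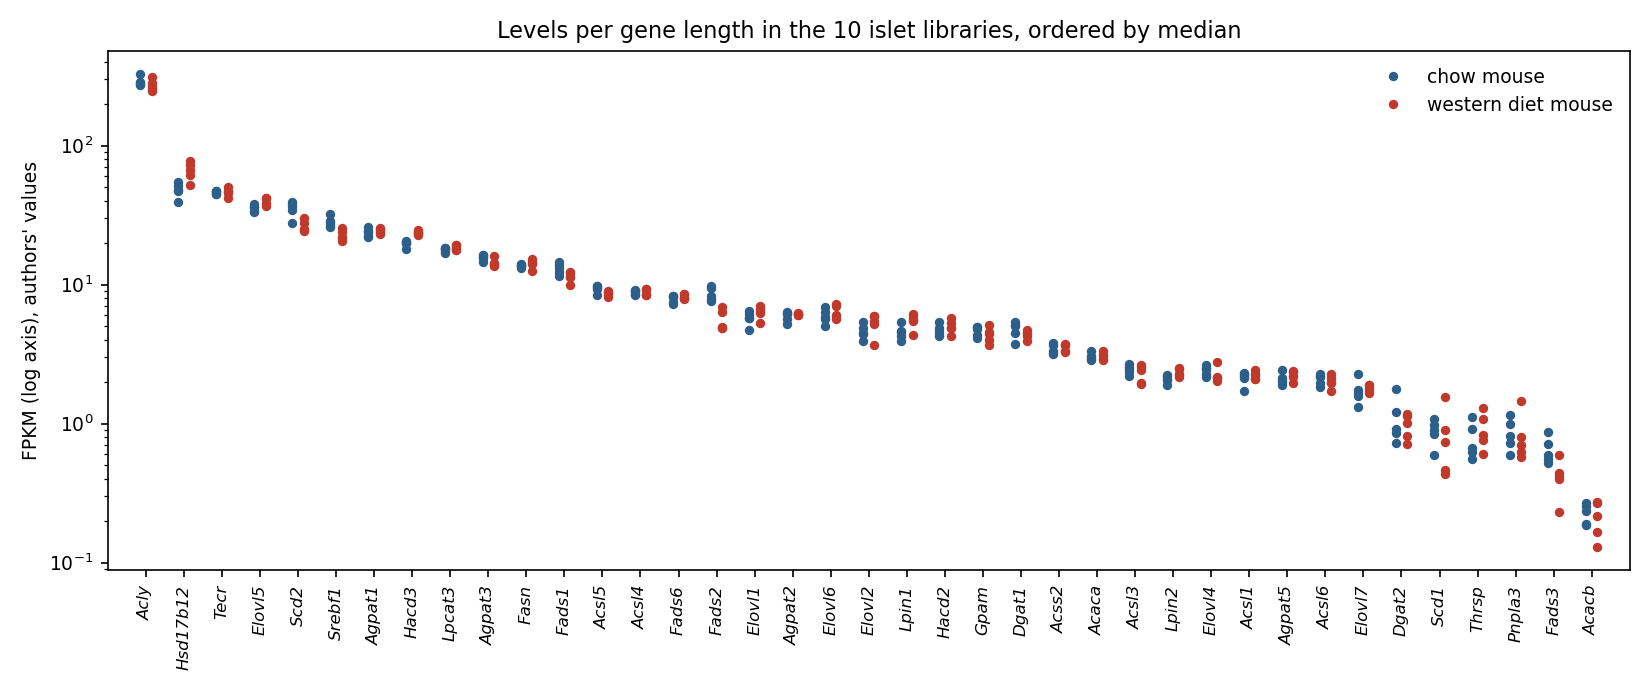
Deposited FPKM (y axis, log axis) of the 39 genes ordered by their median over the 10 libraries (x axis), 1 point per mouse, chow in blue and western diet in red. Acly stands alone at a median of 277 FPKM, and 6 genes from Dgat2 to Acacb lie below 1 FPKM, where the points of both diets scatter more widely.

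The order of levels per gene length set Acly first, then Hsd17b12, Tecr (46.6 FPKM), Elovl5, Scd2, Srebf1 (25.8), Agpat1 (24.2) and Hacd3 (21.7). Neighbours in this order were not separate, since the range of Hsd17b12 over the 10 libraries (39.5 to 77.5 FPKM) takes in that of Tecr (41.8 to 50.4). Acly, at 249 to 325 FPKM, was apart from all others. At the low end Dgat2, Scd1, Thrsp, Pnpla3, Fads3 and Acacb were under 1 FPKM. Together the 39 genes made up 0.300% to 0.342% of each library.

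No acyl-CoA synthetase gene passed, and the median of the 5 was -0.05. Acsl5 was the most abundant of them per length (8.94 FPKM), just above Acsl4 (8.75 FPKM). Acsl5 gave 43.7, 39.4, 42.7, 43.4 and 41.0 CPM on the western diet (cage 2 mouse last) and 41.3, 45.8, 44.9, 47.5 and 47.6 on chow. Of the 5 chow mice 4 were above every western diet mouse, and chow mouse 1 lay inside their range; the log2 fold change was -0.11 ± 0.06 (SE; adjusted p by edgeR = 0.21). Some reads of Acsl5 may belong to Zdhhc6 on the other strand, which shares 8.3% of its exon bases, since no strand setting is known. The same holds for Agpat5 (18.9%, with Gm35934), Lpcat3 (10.2%, with Emg1), Acsl1 (9.9%, with Gm45244) and others at smaller shares. Acsl3 shares 5.6% with Utp14b on its own strand. Of the genes that passed, Srebf1 shares 1.9% with Rai1 and Scd2 1.1% with Mir5114. Acsl4, which favours arachidonate, was at 47.6 ± 2.27 and 47.5 ± 1.82 CPM on the 2 diets (SD, n = 5 each; edgeR adjusted p = 0.99). Acsl1, Acsl3 and Acsl6 had log2 fold changes of 0.07, -0.09 and -0.05.

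The 11 genes of glycerolipid assembly also had none that passed, with log2 fold changes from -0.19 to 0.26. Lpin1, a phosphatidate phosphatase that makes diacylglycerol, came closest. It gave 53.1, 59.0, 54.5 and 55.3 CPM in cage 4 and 42.2 in cage 2, against 44.1, 51.6, 44.9, 41.3 and 37.9 on chow. The cage 4 mice were above all chow mice and the cage 2 mouse was not. The log2 fold change was 0.26 ± 0.09 (SE; adjusted p by edgeR = 0.076) with all mice and 0.34 without the cage 2 mouse (adjusted p = 0.0076). Without chow mouse 2 the adjusted p was 0.022, and DESeq2 gave 0.044. Lpin2 had a log2 fold change of 0.16 ± 0.07 (adjusted p = 0.14). Agpat3, an acyltransferase that makes phosphatidate, gave 108, 110, 111 and 106 CPM in cage 4 and 125 in cage 2, against 121, 127, 122, 128 and 113 on chow. Here too the cage 4 mice were apart, below all chow mice, and the cage 2 mouse was within the chow range; the adjusted p was 0.14 with it and 0.043 without it. Agpat1, the most abundant of the 11 at 24.2 FPKM, gave 75.2, 74.0, 70.5, 71.6 and 76.4 CPM on the western diet and 66.7, 73.3, 66.1, 77.9 and 72.0 on chow, with a log2 fold change of 0.05 ± 0.05 (adjusted p = 0.61). Gpam (-0.09 ± 0.09), the acyltransferase that opens the pathway at mitochondria, and Dgat1 (-0.11 ± 0.10) and Dgat2 (-0.19 ± 0.23), which complete triglyceride, did not pass. Agpat2, Agpat5, Lpcat3 and Pnpla3 lay between -0.02 and 0.07.

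In CPM 3 of the 39 genes had no overlap between the diets, Hacd3 higher and Srebf1 and Fads2 lower, where 8.85% of all genes tested had none (4.44% higher and 4.42% lower). With the cage 2 mouse left out, a setting chosen after seeing the data, 7 had no overlap. These were Hacd3, Hsd17b12, Elovl5 and Lpin1 higher and Srebf1, Fads2 and Agpat3 lower, beside a background of 13.9% (7.28% higher and 6.57% lower) for the same mice, among which 11.8% of genes passed the adjusted p. The cage 2 mouse was the highest of its diet in 9 of the 39 genes and the lowest in 10. Mouse 1 of cage 4 was so in 9 and 11, so by this count the cage 2 mouse did not stand out. Over all genes, leaving out the cage 2 mouse raised the number that passed from 1627 to 1813, and no other single mouse did so. The cage 2 mouse is 1 mouse, so cage 2 has no spread of its own.

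**Figure D4:**
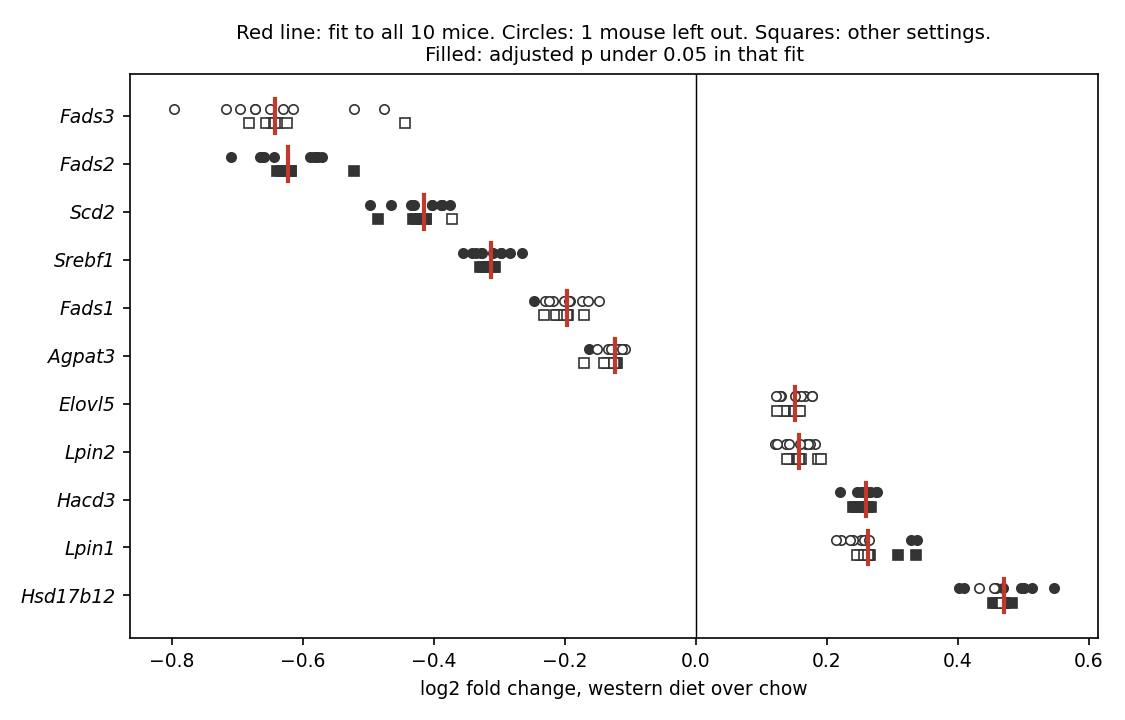
Log2 fold change of western diet over chow (x axis, log2 scale) for the 11 genes with an unadjusted p under 0.05 (y axis): the red line is the value with all 10 mice, circles are fits without 1 mouse, squares other settings, and filled marks passed an adjusted p of 0.05 in that fit. Srebf1, Fads2 and Hacd3 are filled throughout, and no point changes sign. Hsd17b12 and Lpin1 are mixed, Scd2 is filled in 18 of 19 fits, and Fads1, Elovl5 and Agpat3 are each filled in 1.

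The authors' deposited table, made from the same reads, has 3 of the 39 genes higher and 3 lower at an adjusted p under 0.05. In the authors' deposited table these are the 5 above and Lpin1, at a log2 fold change of 0.26 and an adjusted p of 0.049. For Fads2 the authors' deposited table gives -0.62 and for Hsd17b12 0.47.

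Other genes of lipid metabolism were taken from 8 lists, of which 102 of 104 symbols were found and 93 tested; 5 were higher and 5 lower, again 10.8%. The list of SREBP machinery and other regulators of lipid genes had 3 lower genes of 17 and none higher, where 5.5% of all genes tested were lower. The list as a whole was not shifted down, since 11 of the 17 had a log2 fold change above 0 and the median was 0.03. Srebf2, which encodes the cholesterol-directed SREBP-2, gave 166, 183, 168, 157 and 163 CPM on the western diet (cage 2 mouse last) and 206, 196, 185, 207 and 209 on chow, with no overlap (-0.26 ± 0.05; edgeR adjusted p = 0.0044). Insig1, an SREBP target that holds the precursor in the endoplasmic reticulum, gave 148, 154, 170, 136 and 116 CPM against 180, 183, 161, 196 and 183, with only chow mouse 3 inside the western diet range (-0.32 ± 0.08; adjusted p = 0.030). Mid1ip1, the relative of Thrsp that activates acetyl-CoA carboxylase, was lower by a smaller step (-0.21 ± 0.06; adjusted p = 0.047). Scap, which escorts the precursors, Mbtps1 and Mbtps2, which cleave them, Insig2, the relative of Insig1, and Mlxipl, the carbohydrate-responsive factor ChREBP, did not pass.

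Outside that list the changes were scattered. Pcyt1b, which makes the CDP-choline used for phosphatidylcholine, fell by 0.46 on the log2 scale (SE 0.07; edgeR adjusted p = 0.0011), with every western diet mouse (28.3 to 35.8 CPM) under every chow mouse (38.8 to 46.7 CPM). Of the 20 phospholipid genes 2 rose, Cds1 (0.28 ± 0.07; adjusted p = 0.016), which makes CDP-diacylglycerol, and Crls1 (0.33 ± 0.08; adjusted p = 0.016), the cardiolipin synthase of mitochondria. Mdh1, the cytosolic malate dehydrogenase, rose among 9 genes of citrate, acetyl-CoA and NADPH supply (0.24 ± 0.05; adjusted p = 0.0066). Slc27a4, a fatty acid transport protein with acyl-CoA synthetase activity, rose among 12 uptake and binding genes (0.21; adjusted p = 0.014). Mboat2, a lysophospholipid acyltransferase, fell among 14 other glycerolipid genes (-0.22; adjusted p = 0.014), and Pnpla6, a lysophospholipase, rose among 7 lipolysis genes (0.21; adjusted p = 0.040). None of the 5 other desaturase and elongation genes and none of the 9 genes of mitochondrial fatty acid synthesis passed. Scd3, a further Scd gene on chromosome 19, went the other way from Scd2 (0.60 ± 0.26, edgeR adjusted p = 0.14). All western diet mice lay above all chow mice, at 12 to 43 reads per library. Degs2 was lower with no overlap (-0.38 ± 0.12, adjusted p = 0.053).

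**Figure D5:**
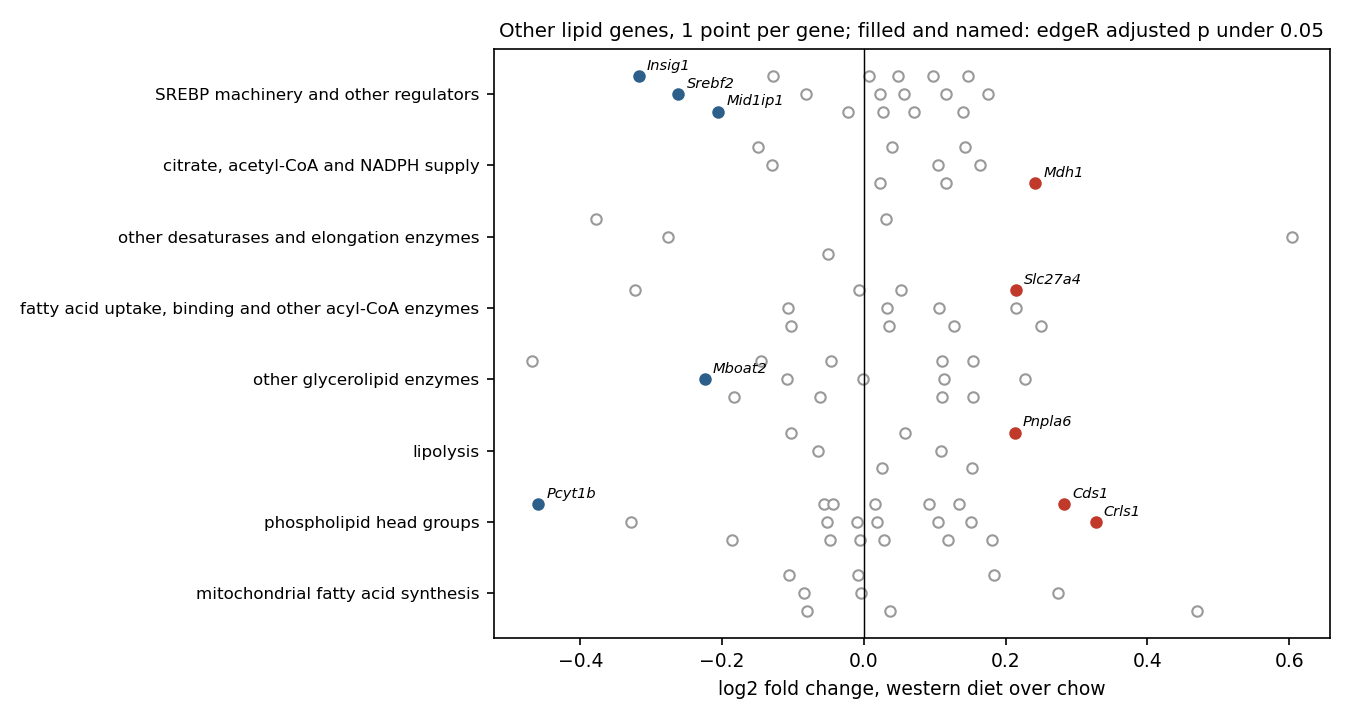
Log2 fold change of western diet over chow (x axis, log2 scale) of 93 other lipid genes in 8 lists (y axis), 1 point per gene; filled and named points passed an edgeR adjusted p of 0.05. The 10 that passed lie on both sides of 0, and the 3 in the list of SREBP machinery and other regulators, Insig1, Srebf2 and Mid1ip1, are all lower. Of the 17 genes in that list 11 lie right of 0.

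Libraries held 16532518 to 23902681 counts. The 9 beta cell markers summed to 241953 to 276745 CPM on the western diet and 230883 to 267031 on chow, and most of this was Ins1 and Ins2, which did not pass. Of the 9, G6pc2 (0.47) and Iapp (0.19) were higher and Slc2a2 (-0.54) was lower in log2 fold change, and of 5 alpha cell markers Ttr (0.20) was higher. In such bulk samples fewer cells of a type and less RNA per cell cannot be told apart. Of 10 markers of adipocytes, a cell rich in lipogenic RNA, 7 were found and only Fabp4 was tested. Adipoq, Lep and Retn were not among those found. The 7 were near 0, with a sum of 1.89 to 4.89 CPM over all libraries, and Plin1 had at most 2 reads in a library. Almost all of the sum was Fabp4, which did not pass (0.64 ± 0.23, edgeR adjusted p = 0.085). Acinar markers ranged widely in both diets (853 to 6163 CPM against 713 to 2993) with 0 of 9 passing, and Schwann cell markers had 0 of 4 passing. Endothelial markers summed to 356.68 to 411.672 CPM on the western diet and 411.829 to 456.562 CPM on chow, with 1 of 7, Kdr, lower. One gene each was lower among 8 macrophage markers (C1qa) and among 6 tested stellate and fibroblast markers (Pdgfrb). Of 6 tested duct markers 2 were lower, Krt19 (log2 fold change -2.64, edgeR adjusted p = 0.00074) and Muc1 (-1.01, adjusted p = 0.031). Krt19 had a mean of 0.57 CPM on the western diet and 3.58 on chow, from 4 to 158 reads per library. Genes known to respond early to islet isolation, such as Jun, Egr1 and Hspa1a, were lower in nearly every case: 15 of 16 passed as lower on the western diet, and they summed to 9917 to 12215 CPM against 17495 to 21640 on chow with no overlap. The part of these shifts in the values of Srebf1, Scd2, Fads2, Hsd17b12 and Hacd3 was not tested.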

How the data were processed

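RNA was sequenced from islets of 10 mice, 5 per diet, with libraries made with a NEBNext Ultra kit per the labels' protocols. Per the submitters' processing notes, the tools were STAR 2.5, HTSeq 2 and DESeq2, and the builds named there are mm10 and GRCm38; the strand setting and the annotation are not given in the sources used here. The deposited table holds the authors' read counts per gene, whole numbers that are not normalized. Its FPKM are per gene length and library size, as made by the authors, and were used only to rank levels between genes. Its log2 fold changes and p-values are the authors' own comparison. A further 10 columns of normalized values per sample were not used.

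The test was the quasi-likelihood test of edgeR 4.0.16 (R 4.3.3) on the counts, with filterByExpr with a minimum count of 10, TMM factors, robust moderation, no covariate, and Benjamini-Hochberg adjustment over 15104 genes, called at 0.05. SE was obtained from each log2 fold change and its F statistic. CPM carry the TMM factors. The labels give each library its own mouse, so the spread is between mice and includes counting error. The text accounts for all 39 genes. Values per mouse are given for each gene called and for the most abundant gene not called in each of 6 roles. A few more are printed where they lay near the threshold (Elovl5, Lpin1, Agpat3) or beside a gene called (Scd1), chosen after their values were seen. From the other lists the text takes every gene called, up to 6 a list. Per-mouse values of Srebf2 and Insig1 were also chosen after seeing them. The genes, roles and lists were chosen with earlier results of these data known. Promoters came from RefSeq (GRCm38.p6), and overlaps from GENCODE M21, in which 33 of 39 genes had the same start and end. The test was also run on simulated counts for independent mice without a cage effect. That run cannot speak to the confounding of diet and cage. The alternatives tried were scaling by RLE or upper quartile factors, dropping the filter or asking for a mean of 5 CPM, DESeq2 1.42.0, limma-voom (limma 3.58.1), moderation without the robust option, a block for mouse number, and fits without single mice or without a pair of mice.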

Additional observations from a re-analysis of the deposited data

Results flagged for a closer look

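Within a diet, 78 groups of 5 mice (39 genes on each diet) were searched for a mouse that stood far from the other 4, and 5 were found; chance alone marks about 1 in 20 groups. In 3 of the 5 it was the western diet mouse of cage 2. That mouse had 125 CPM of Agpat3, where the 4 mice of cage 4 had 106 to 111. It had 8.33 CPM of Elovl4 against 6.14 to 6.55, and 2.26 CPM of Pnpla3 against 0.892 to 1.23. Among the chow mice, mouse 2 had 1714 CPM of Acly where the other 4 had 1440 to 1505. Chow mouse 1 had 48.6 CPM of Hacd3 where the others had 54.2 to 55.9; without it Hacd3 remained past the threshold.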

How the results depend on the processing

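Srebf1, Fads2 and Hacd3 passed in all 19 other fits. The count of lipid genes higher on the western diet was 2, became 1 with no filter on low counts, and ranged from 1 (without mouse 4 or 5 of cage 4 or chow mouse 3) to 4 (without the cage 2 mouse); the count lower was 3, was 3 to 4 when a single mouse was left out, and was 2 without both the cage 2 mouse and chow mouse 1. No overlap held for 3 genes, and for 7 without the cage 2 mouse. Over all genes, 796 were higher and 831 lower, with 376 to 921 and 562 to 892 when a mouse was left out. The total of 1627 fell to 938 without chow mouse 1 and to 1050 without chow mouse 3. It fell to 985 and 1055 without mice 4 and 5 of cage 4, and rose to 1813 without the cage 2 mouse. Mouse numbers did not pair the samples (correlations of deviations from -0.13 to 0.05 for the same number). With mouse number as a replicate block 342 genes were higher and 499 lower. Number 3 occurs only on chow, so chow mouse 3 in effect adds nothing to the diet comparison in that fit. Number 5 stands for 2 western diet mice, of cages 4 and 2. In the block fit Hsd17b12 lost its call (0.47, edgeR adjusted p = 0.13), as it did without chow mouse 3. Lpin1 gained a call (0.31, adjusted p = 0.037), and 2 of the 39 were higher. DESeq2 called 1998 genes and edgeR 1627. Scaling moved the median of all genes by at most 0.02 (log2).

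A change of sign occurred for 9 genes in some fit, none of them a gene that passed. Under the filter at 5 CPM Acaca was at -0.0031 and Tecr at -0.0015. With no filter Acsl4 was at 0.0018. Without the cage 2 mouse and chow mouse 1 Acacb was at 0.0458, Scd1 at 0.0545, Elovl7 at -0.0266 and Acsl4 at 0.0251. Leaving out a mouse gave -0.014 to 0.0506 for Acaca, -0.2216 to 0.0354 for Acacb, -0.4813 to 0.0487 for Scd1, -0.0136 to 0.19 for Elovl7, -0.015 to 0.0432 for Tecr, -0.0236 to 0.0151 for Acsl4, -0.10 to 0.004 for Acsl6, -0.3068 to 0.0715 for Dgat2 and -0.34 to 0.10 for Pnpla3. The causes were not tested. Genes under 1 FPKM rest on few reads, so that a difference in Fads3, Thrsp, Acacb, Pnpla3, Scd1 or Dgat2 is poorly resolved here.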
